A study of Mus musculus with 35 samples.

Results

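The clustered protocadherins are cell-surface adhesion proteins of the cadherin superfamily, encoded in tandem by the alpha, beta and gamma gene clusters. Their genes were taken from the deposited matrix by symbol, and 55 of 14870 genes matched: 13 alpha, 21 beta and 21 gamma members. No member's row repeated the values of another. RNA was sequenced in bulk from the medial prefrontal cortex (mPFC) of mice deficient in Shank3 (KO), a scaffold protein of excitatory synapses, and of wild-type (WT) mice. The 35 libraries fall into KO_abx (n = 3) and WT_abx (n = 4), which received antibiotics, KO_acetate (n = 5) and WT_acetate (n = 5), which received acetate, KO_abx_and_acetate (n = 4) and WT_abx_and_acetate (n = 4), which received both, and KO_control (n = 4) and WT_control (n = 6), which received water. The labels give 15 females and 20 males; the sources used here do not give the strain, the age or the part of Shank3 that the mutation removes. The labels do not state 1 animal per library, so a p-value here measures only the spread between libraries, part of which may be technical.

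Each alpha and gamma gene joins a variable first exon of its own, which encodes the whole extracellular and membrane part of the protein, to constant exons shared by its cluster, while a beta gene is complete in its own exon. A neuron switches on a few alternate isoforms by a largely random choice among promoters, a choice that depends on the DNA-binding protein CTCF and the cohesin ring, whereas the C-type isoforms at the end of the alpha and gamma clusters are expressed more broadly. Matching isoforms on facing membranes bind each other, and this recognition lets branches of 1 neuron avoid each other and takes part in synapse formation and neuron survival. In bulk tissue the choices of all cells are summed, and fewer cells that use a gene and less RNA per cell cannot be told apart.

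In the GRCm38 annotation (GENCODE), all members lie on the plus strand of chromosome 18. The alpha cluster runs from 36930184 to 37187661 (257.5 kb), the beta cluster from 37264938 to 37524479 (259.5 kb) and the gamma cluster from 37661793 to 37841873 (180.1 kb). Alpha genes have 4 or 5 exons and gamma genes 4; beta genes have 1, apart from Pcdhb22 with 2, which overlaps Pcdhb21. Pcdhgb8 is annotated as a polymorphic pseudogene, and the symbol Pcdha11 stands for 2 genes of that annotation, so no length was given to it. Pcdhb1 and Pcdhgc4 had no row in the matrix used here and were not analysed. The sources used here do not say how reads on the shared constant exons were divided among the alpha or gamma genes, so the level of an alpha or gamma gene may hold reads from its neighbours' transcripts.

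Depth was 12772454 to 28027869 reads per library (median 21829753). Shank3 was at 4.07 to 5.11 log2 CPM (CPM, reads scaled to library size) in KO libraries and at 7.48 to 8.85 log2 CPM in WT libraries. The libraries labelled WT_abx 4, WT_acetate 2 and WT_acetate 5 had the 3 lowest WT values, at up to 8.08 log2 CPM, against at least 8.22 log2 CPM in the other WT libraries. The gene Acr set them apart more sharply. It was at 4.56, 4.46 and 3.62 log2 CPM in these 3, in that order, and at most 0.83 in the other WT libraries. In KO libraries Acr was at 5.04 to 5.78 log2 CPM. The WT label of these 3 is thus in doubt, and comparisons that use WT_abx or WT_acetate keep them as labelled. Y-linked genes went against the labelled sex in the libraries labelled WT_abx 3, WT_acetate 2 and WT_acetate 4, and the library labelled WT_acetate 5 (female) was at 34.3% of the male median, between the sexes; these 4 are counted as not matching their sex label. Summed markers of striatal medium spiny neurons reached 929 CPM in KO_acetate 1 against a median of 134 CPM over all libraries, and summed oligodendrocyte markers 9599 CPM against 2160 CPM. KO_control 1 had the highest sum of the measured serotonergic markers (Tph2, Slc18a2 and Ddc), 14.6 CPM against a median of 8.75 CPM. KO_acetate 1 was close to it, at 13.96 CPM. In any library Tph2 reached at most 0.63, Slc18a2 2.05 and Ddc 3.40 log2 CPM. Slc6a4 and Fev of this list had no row, nor did Folr1, Otx2 and Aqp1 of the choroid plexus list. The library labelled WT_abx 4 had choroid plexus markers at 121 CPM against a median of 6.56 CPM, and meningeal fibroblast markers at 659 CPM against a median of 129 CPM. These 3 libraries, chosen from earlier results of these data and not by a threshold, are called apart in tissue markers. WT_abx_and_acetate 4 was not among them, although its choroid plexus markers summed to 30.8 CPM. The 8 excitatory neuron markers, which define the bulk of the cortex, summed to 4861 CPM in KO_acetate 1 and had a median of 8240 CPM over all libraries. None of the 11 marker lists had a gene past the adjusted threshold in any comparison.

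Levels between genes were compared per kilobase of exon that no other clustered protocadherin shares. This was 2489 of 5353 exon bases in the alpha gene Pcdha1, but all 2813 in the beta gene Pcdhb2. Reads on shared constant exons, if counted, would raise alpha and gamma genes over beta genes on this scale. Their part in the order of clusters was not tested. The C-type members led: Pcdhgc5 averaged 99.2 CPM per kb, Pcdhgc3 50.9 CPM per kb and Pcdhac2 30.0 CPM per kb over the 35 libraries. Pcdhgc5 encodes an isoform known to bind GABA-A receptors at inhibitory synapses, Pcdhgc3 one that promotes dendrite branching in cortical neurons through Axin1, and Pcdhac2 the isoform that spaces the axons of serotonin neurons in mice. The remaining C-type member, Pcdhac1, was at 3.34 CPM per kb, inside the range of the alternate alpha genes. Among alternate members, Pcdhga8 was highest at 22.7 CPM per kb, ahead of Pcdhga11 at 16.6 CPM per kb, Pcdhga12 at 12.3 CPM per kb and Pcdha12 at 11.97 CPM per kb. The median member was at 6.32 CPM per kb in the gamma cluster, 4.12 CPM per kb in the alpha cluster (12 members with a length) and 1.38 CPM per kb in the beta cluster. Pcdhb6 (0.599 CPM per kb), Pcdhb4 (0.729), Pcdha8 (0.809) and Pcdhb8 (0.809) were the lowest. The beta cluster spanned the narrowest range, up to 4.19 CPM per kb in Pcdhb9, and Pcdhb17, Pcdhb9 and Pcdhb22 were its 3 highest members on the log2 CPM scale. By mean log2 CPM, Pcdha8 (1.003), Pcdha1 (2.18) and Pcdha2 (2.66) were lowest in the alpha cluster and Pcdhgb8 (2.14), Pcdhgb5 (2.995) and Pcdhga1 (3.10) in the gamma cluster. In read numbers, Pcdhgc5 had 2643 to 8014 reads in a library and Pcdha8 12 to 96.

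**Figure D1:**
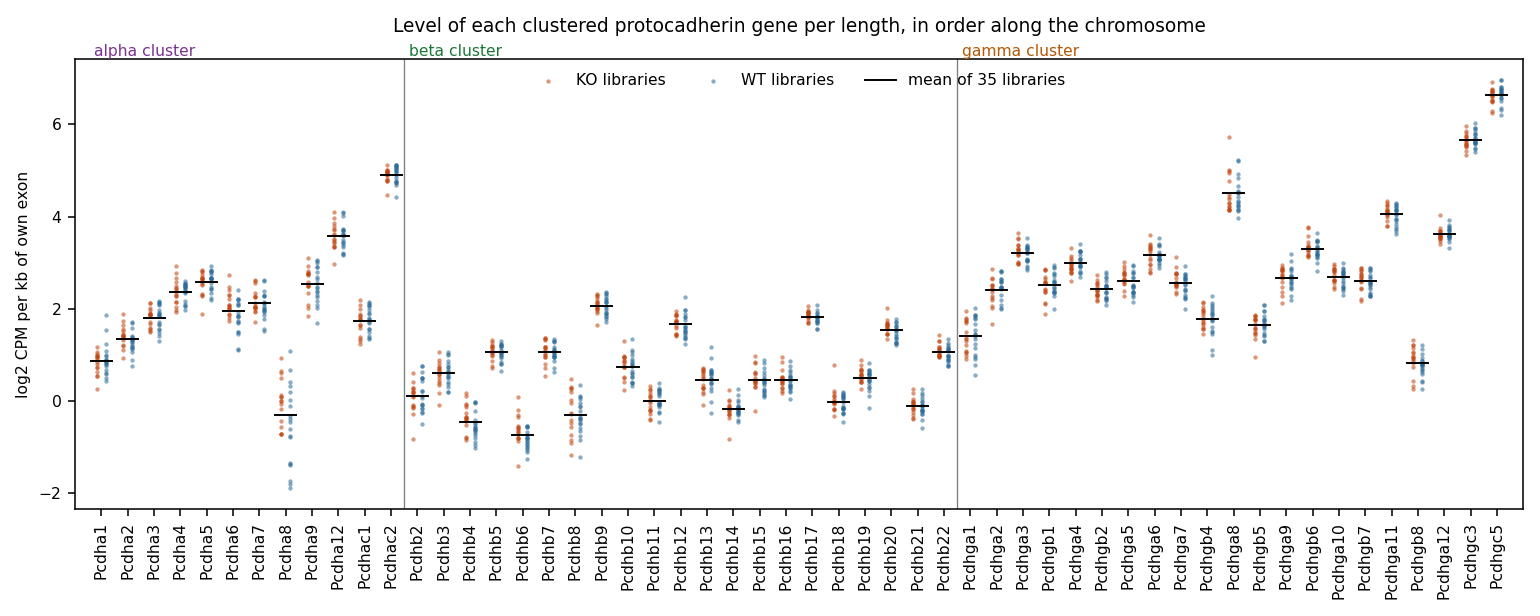
Level of 54 clustered protocadherin genes in log2 CPM per kb of own exon (vertical axis), in their order along the chromosome; points are KO libraries (left) and WT libraries (right), and lines the mean of 35 libraries. Pcdhgc5, Pcdhgc3 and Pcdhac2 lie highest, at 99.2, 50.9 and 30.0 CPM per kb, and ranks by mean log2 CPM are nearly the same in both genotypes.

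By mean log2 CPM, not per kb, the order of members was nearly the same in both genotypes. Ranked over 16 KO and 19 WT libraries, 28 members had the same rank and none moved by more than 3 places (Spearman rho 0.997 across genes, which are not independent replicates). Member means ran from 1.003 log2 CPM (Pcdha8) to 8.02 log2 CPM (Pcdhgc5). Log2 folds between genotypes over treatments ran only from -0.14 to 0.46. A shared order is thus nearly given by the range of levels and cannot show that genotype left single members unchanged. Summed over measured members, the gamma cluster was at 777 ± 24.4 CPM in KO_acetate (SD, n = 5) and 779 ± 40.4 CPM in WT_acetate (n = 5), and at 797 ± 48.5 CPM in KO_control (n = 4) and 809 ± 46.1 CPM in WT_control (n = 6). The alpha cluster was at 247 ± 13.4 CPM in KO_acetate and 241 ± 17.8 CPM in WT_acetate, and at 231 ± 25.1 CPM in KO_control and 235 ± 15.98 CPM in WT_control. The beta cluster was at 152 ± 7.04 CPM in KO_acetate and 145 ± 7.32 CPM in WT_acetate, and at 148 ± 2.98 CPM in KO_control and 146 ± 10.9 CPM in WT_control. Under antibiotics the sums were 784 ± 23.8 CPM (gamma), 226 ± 1.38 CPM (alpha) and 145 ± 10.5 CPM (beta) in KO_abx (n = 3), and 781 ± 33.8, 222 ± 32.3 and 138 ± 9.54 CPM in WT_abx (n = 4). With both treatments they were 782 ± 13.1 CPM (gamma), 240 ± 20.6 CPM (alpha) and 150 ± 10.9 CPM (beta) in KO_abx_and_acetate, and 783 ± 26.4, 247 ± 16.1 and 146 ± 10.5 CPM in WT_abx_and_acetate (n = 4 each). Library ranges of the 3 sums overlapped in every one of these pairs of KO and WT groups.

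**Figure D2:**
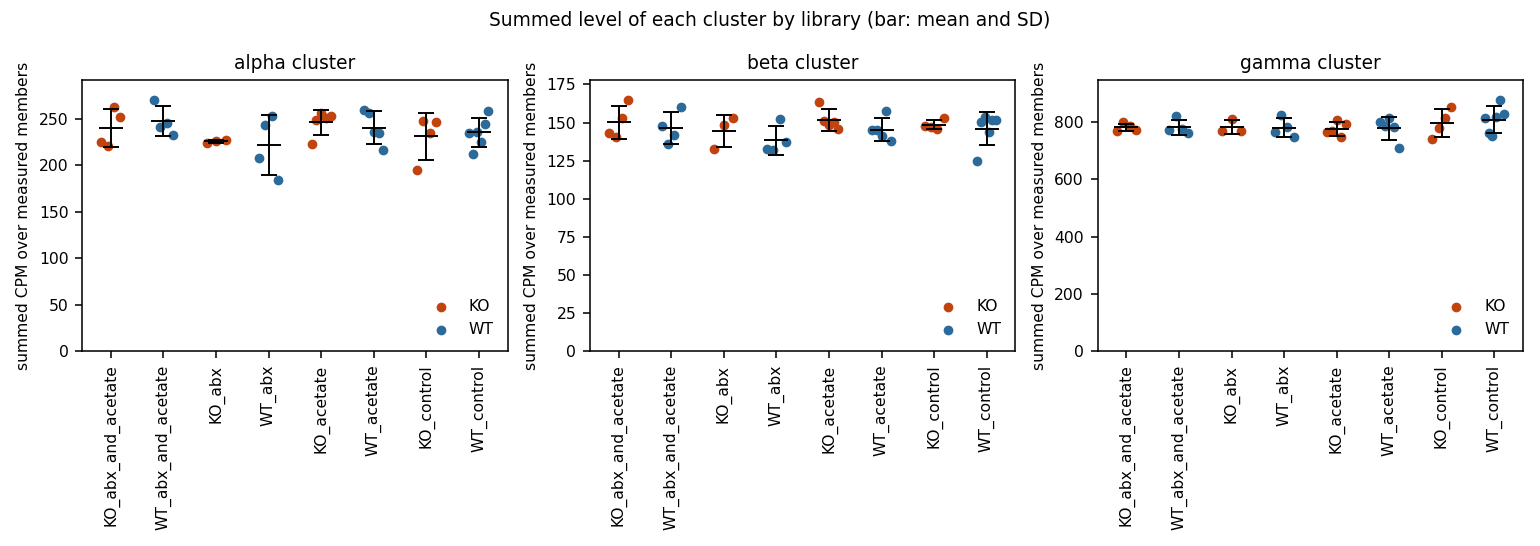
Summed CPM of the measured members of each cluster (vertical axis from 0) by group; points are libraries and black marks the mean with its SD. Groups overlap in all 3 panels, and WT_control 1 has the lowest beta sum, at 125 CPM.

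The 4 measured C-type members made up 39.5 ± 3.15% of the summed CPM in KO_acetate (SD, n = 5) and 42.5 ± 2.10% in WT_acetate (n = 5), and 42.9 ± 1.70% in KO_control (n = 4) and 43.6 ± 2.02% in WT_control (n = 6). The share was 43.5 ± 1.11% in KO_abx (n = 3) and 42.5 ± 1.44% in WT_abx (n = 4), so the antibiotic pair was ordered the other way, and 40.7 ± 0.827% in KO_abx_and_acetate and 42.1 ± 2.65% in WT_abx_and_acetate (n = 4 each). Library ranges overlapped in all 4 pairs. Within KO_acetate the share ran from 36.1% to 43.2%. Group means of Pcdhgc5 lay between 7.90 log2 CPM in KO_acetate and 8.15 log2 CPM in WT_control. Its lowest libraries were the one labelled WT_abx 4 (7.59), KO_acetate 1 (7.64), KO_acetate 4 (7.69), WT_abx_and_acetate 4 (7.70) and the one labelled WT_acetate 5 (7.75). Pcdhac2 was lowest in the library labelled WT_abx 4 (6.01) and in KO_control 1 (6.06), against 6.29 to 6.72 log2 CPM in the other libraries. Of these, the library labelled WT_abx 4, KO_acetate 1 and KO_control 1 are those apart in tissue markers, and WT_abx_and_acetate 4 had raised choroid plexus markers; the part of tissue makeup in these levels was not tested. Pcdhac2 and Pcdhgc5 had the highest correlation of any pair of members once group and sex means were removed, Pearson's r 0.80 and Spearman's rho 0.75 over 35 libraries. Both values come from the same libraries with the same depth and tissue makeup.

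Spread between libraries within group and sex was set against the spread that read counting alone would give. The median ratio was 2.89 in the alpha cluster, 1.72 in the beta cluster and 2.94 in the gamma cluster, beside 2.35 over all genes. The median SD itself was 0.268, 0.215 and 0.226 on the log2 scale, in that order, beside 0.173 over all genes. The median SD from counting was 0.095, 0.132 and 0.076, beside 0.067. The low beta ratio thus goes with a larger counting error, and does not mean that beta members varied less than other genes. Pcdha8 had the largest SD, 0.73 on the log2 scale, and only 0.859% of the 13035 genes with at least its mean level had as large an SD. Pcdha8 was at -0.59, 1.32, -0.50 and 2.39 log2 CPM in WT_abx_and_acetate, which spans the whole range of the series, and at 1.30, 0.87, 1.31 and 1.44 log2 CPM in KO_control. Pcdhga8 had an SD of 0.38 at a far higher level, with 642 to 2832 reads, and 1.73% of genes at least as high had as large an SD. Pcdhb17 was the steadiest member, with an SD of 0.12 and all libraries between 3.78 and 4.30 log2 CPM.

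**Figure D3:**
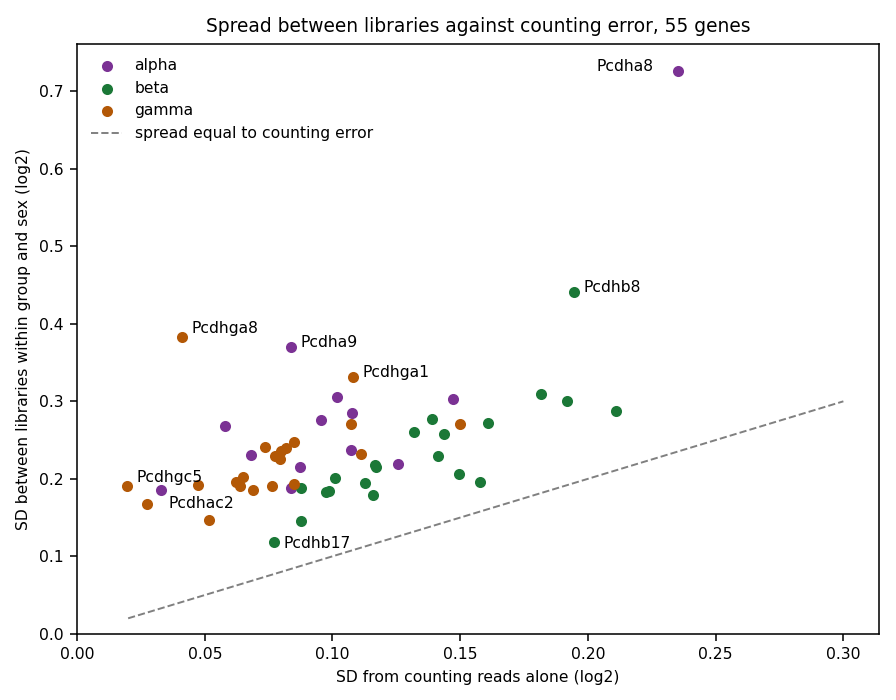
Residual SD of log2 CPM between libraries within group and sex (vertical axis) against the SD that counting reads alone gives (horizontal axis), 1 point per gene, coloured by cluster. All 55 genes lie above the dashed line of equal values; Pcdha8 has the largest SD at 0.73 and Pcdhga8 stands far above its counting error.

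Pairs of beta members moved together more often than pairs of other genes, as a description without a test: after removing group and sex means, the median r of beta pairs was 0.16 with 77.1% above 0, beside a median of -0.002 and 49.8% above 0 for pairs drawn from all genes. The median was 0.02 for alpha pairs and 0.08 for gamma pairs. Among beta members Pcdhb6 and Pcdhb16 had r 0.70 and Pcdhb6 and Pcdhb18 r 0.67, and in the gamma cluster Pcdhga4 and Pcdhgb6 had r 0.77. The lowest values were -0.70 for Pcdha8 and Pcdhb22 and -0.64 for Pcdhgb7 and Pcdhgc5. All pairs share libraries, depth and tissue makeup.

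Whether loss of Shank3 changes these genes was asked in each treatment with limma over all 14870 genes, with p-values adjusted by the Benjamini-Hochberg method and a threshold of 0.05. No member passed in any of the 16 comparisons. An unadjusted p under 0.05 in at least 1 of them was found in 22 of 55 members. The share of all genes with such a p in at least 1 comparison was not counted, so the 22 are only described. Per comparison the share was between 0 and 9.09% of members, beside 2% to 14.4% of all genes. In control, 0 of 55 members had an unadjusted p under 0.05, where 4% of all genes did and 0.0202% (3 genes) passed the adjusted threshold. The median log2 fold of KO over WT was 0.02 for alpha, 0.05 for beta and 0.03 for gamma members, beside -0.002 over all genes. For 48 of 55 members the 95% confidence interval lay within a 1.5-fold change in either direction. The widest interval belonged to Pcdha8, whose log2 fold of 0.35 had an interval from -0.56 to 1.25. The smallest p was that of Pcdhgb8, with 2.37, 2.15, 2.54 and 2.18 log2 CPM in KO_control and 1.58 to 2.18 log2 CPM (median 2.07) in WT_control. Its log2 fold was 0.32 ± 0.17 (SE, adjusted p = 0.9995 by limma), and the groups overlapped. In the beta cluster Pcdhb3 came first with -0.25 ± 0.17, and in the alpha cluster Pcdha5 with 0.11 ± 0.12.

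Under antibiotics, 3 of 55 members had an unadjusted p under 0.05 between KO and WT (5.45%), beside 3.78% of all genes, of which 0.0134% passed the adjusted threshold. Pcdha5, an alternate alpha isoform, was at 3.53, 3.51 and 3.11 log2 CPM in KO_abx and at 3.79, 3.57, 4.15 and 3.47 log2 CPM in WT_abx. The groups overlapped at the library labelled WT_abx 4, and the log2 fold was -0.38 ± 0.14 (SE, adjusted p = 0.995), and -0.23 without the library labelled WT_abx 3. Pcdhb11 was at 1.86, 1.73 and 1.96 log2 CPM in KO_abx, below all 4 WT_abx libraries (2.10, 2.05, 2.42 and 2.30), with a log2 fold of -0.35 ± 0.16. Pcdhb19 was at 0.29 ± 0.14. The gamma cluster's smallest p belonged to Pcdhga2 (-0.32 ± 0.18), a value of -0.12 without KO_abx 3. Pcdhga8, named after its values were seen, was at 5.82, 5.53 and 5.59 log2 CPM in KO_abx, below all 4 WT_abx libraries (5.89, 6.22, 5.94 and 6.04), with a log2 fold of -0.37 ± 0.27 (SE, adjusted p = 0.995). The share of all genes whose groups lie fully apart was not counted, here or in later comparisons, so such separation is only described. The medians were 0.02 for alpha, 0.12 for beta and -0.0004 for gamma members, and 40 of 55 intervals lay within 1.5-fold.

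Under acetate, 2 of 55 members (3.64%) had an unadjusted p under 0.05 between KO and WT, beside 5.97% of all genes, and 0.00672% of all genes passed. Pcdhgb6, an alternate gamma isoform, was at 5.13, 5.11, 4.69, 4.59 and 4.71 log2 CPM in KO_acetate and at 4.83, 4.36, 4.81, 4.61 and 4.18 log2 CPM in WT_acetate. Its log2 fold was 0.30 ± 0.12 (SE, adjusted p = 0.827) and 0.04 without the 4 libraries not matching their sex label. Pcdhb20 had a log2 fold of 0.24 ± 0.12, which was 0.15 without the libraries that stood apart in tissue markers: its value of 3.86 log2 CPM in KO_acetate 1 was the highest of the series. The alpha cluster's smallest p belonged to Pcdha3 (0.30 ± 0.15). The medians were 0.05 for alpha, 0.03 for beta and 0.08 for gamma members, and 45 of 55 intervals lay within 1.5-fold.

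With both treatments, 1 of 55 members (1.82%) had an unadjusted p under 0.05 between KO and WT, beside 3.7% of all genes, and 0.0134% passed. This was Pcdha6, an alternate alpha isoform, at 3.74, 3.40, 3.39 and 3.35 log2 CPM in KO_abx_and_acetate and 3.24, 3.18, 2.45 and 2.78 log2 CPM in WT_abx_and_acetate. All KO_abx_and_acetate libraries lay above all WT_abx_and_acetate libraries, and the log2 fold was 0.69 ± 0.21 (SE, adjusted p = 0.927). In the other treatments the log2 fold of Pcdha6 was 0.31 ± 0.22 under antibiotics, 0.32 ± 0.19 under acetate and 0.10 ± 0.19 in control, and library ranges overlapped. The gamma member Pcdhga1 had a log2 fold of -0.45 ± 0.23 and the beta member Pcdhb22 one of 0.21 ± 0.11. The medians were 0.00 for alpha, 0.01 for beta and 0.03 for gamma members, and 40 of 55 intervals lay within 1.5-fold.

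Averaged over treatments, the genotype comparison was most precise: 54 of 55 intervals lay within 1.5-fold, and the median log2 fold was -0.03 for alpha, 0.03 for beta and -0.01 for gamma members, beside 0.00 over all genes. Here 4 of 55 members (7.27%) had an unadjusted p under 0.05, all with positive values, beside 5.25% of all genes, and 0.0202% passed. They were Pcdha6 (0.36 ± 0.10, adjusted p = 0.746), Pcdhb6 (0.22 ± 0.10), Pcdhb20 (0.13 ± 0.06) and Pcdhb22 (0.11 ± 0.05). KO_acetate 1 held the highest value of the series in each of them, at 4.07 log2 CPM for Pcdha6, 1.98 for Pcdhb6, 3.86 for Pcdhb20 and 4.06 for Pcdhb22, and it stood apart in striatal and oligodendrocyte markers. Without the libraries apart in tissue markers the log2 fold was 0.29 for Pcdha6 and 0.15 for Pcdhb6. The C-type members were at -0.07 ± 0.10 (Pcdhac1), -0.03 ± 0.06 (Pcdhac2), -0.04 ± 0.06 (Pcdhgc3) and -0.02 ± 0.06 (Pcdhgc5). Among gamma members the smallest p belonged to Pcdhga4, at -0.11 ± 0.06.

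**Figure D4:**
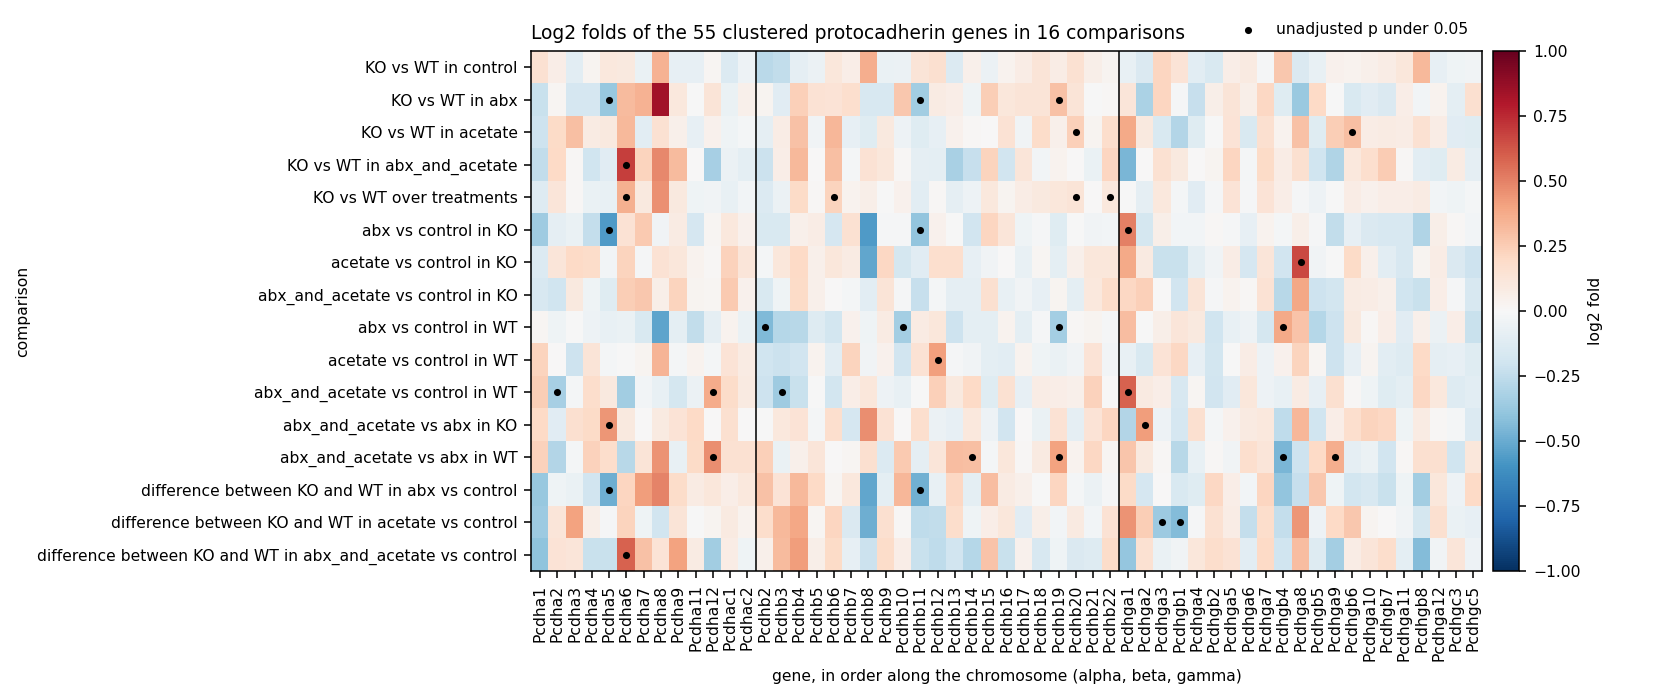
Log2 fold of each of the 55 genes (columns, in order along the chromosome, with lines between clusters) in each of the 16 comparisons (rows), as colour; dots mark an unadjusted p under 0.05. Dots are scattered over 22 genes, a number not set against that among all genes, and none of the 55 genes passed the adjusted threshold. Pcdha5, Pcdha6 and Pcdhb11 are among the genes with dots in several rows, and the rows of each share libraries.

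Each treatment was then compared with control within a genotype; the 3 treatments share their control libraries. In KO mice, antibiotics gave an unadjusted p under 0.05 in 3 of 55 members (5.45%), beside 3.3% of all genes, and 0.0134% of all genes passed. Pcdha5 was at 3.53, 3.51 and 3.11 log2 CPM in KO_abx, below all KO_control libraries (4.08, 3.85, 4.04 and 3.75). Its log2 fold of -0.56 ± 0.14 (SE) had the smallest unadjusted p of any member, 0.00041, and an adjusted p = 0.9994 by limma. Pcdhga1 was at 3.19, 3.47 and 3.43 log2 CPM in KO_abx, above all KO_control libraries (2.61, 2.90, 2.77 and 3.07), with a log2 fold of 0.50 ± 0.24. Pcdhb11 had a log2 fold of -0.40 ± 0.16. The medians were -0.04 for alpha, -0.01 for beta and -0.03 for gamma members, beside 0.00 over all genes.

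Acetate in KO mice gave an unadjusted p under 0.05 in 1 of 55 members (1.82%), beside 13% of all genes, of which 0% passed by limma. This member was Pcdhga8, at 6.39, 5.76, 6.33, 7.11 and 5.67 log2 CPM in KO_acetate and 5.56, 5.52, 5.62 and 5.68 log2 CPM in KO_control. The 4 KO_control libraries lay close together, and the spread KO_acetate libraries met them at the lower end, with KO_acetate 5; the other 4 lay above every KO_control library. The log2 fold was 0.66 ± 0.24 (SE, adjusted p = 0.279), and 0.43 without KO_acetate 4. Pcdhga8 was also high outside this group, at 6.59 log2 CPM in WT_control 1 and 6.61 log2 CPM in the library labelled WT_acetate 5. The alpha cluster's smallest p belonged to Pcdha4 (0.18 ± 0.14) and the beta cluster's to Pcdhb8 (-0.52 ± 0.29, and -0.31 without KO_acetate 4). The medians were 0.12 for alpha, 0.05 for beta and -0.03 for gamma members; the alpha median was 0.01 without KO_control 1.

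Both treatments together in KO mice gave 0 of 55 members an unadjusted p under 0.05, beside 7.42% of all genes, of which 0% passed. The smallest p in each cluster belonged to Pcdha7 (0.27 ± 0.19), Pcdhb22 (0.18 ± 0.11) and Pcdhga11 (-0.20 ± 0.13). The medians were 0.04, -0.02 and 0.01 for alpha, beta and gamma members. Pcdhga8 was at 5.87, 6.38, 6.17 and 5.53 log2 CPM in KO_abx_and_acetate, with 3 of 4 libraries above every KO_control library, and had a log2 fold of 0.39 ± 0.25.

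In WT mice, antibiotics gave an unadjusted p under 0.05 in 4 of 55 members (7.27%), beside 9.05% of all genes, of which 0% passed. Pcdhb19, a beta isoform, was at 2.69, 3.04, 3.27 and 3.12 log2 CPM in WT_abx and at 2.94 to 3.50 log2 CPM (median 3.43) in WT_control. Its log2 fold was -0.34 ± 0.12 (SE, adjusted p = 0.376), and -0.22 without WT_abx 1. Pcdhb2 was at -0.44 ± 0.20, Pcdhb10 at -0.34 ± 0.17 and Pcdhgb4 at 0.38 ± 0.17. The alpha cluster's smallest p belonged to Pcdha11, at -0.25 ± 0.14 and at -0.10 without the libraries of intermediate Shank3. Log2 folds were positive in 2 of 13 alpha and 7 of 21 beta members, with medians of -0.07 and -0.10, and in 51.4% of all genes; the gamma median was 0.01.

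Acetate in WT mice gave an unadjusted p under 0.05 in 1 of 55 members (1.82%), beside 9.41% of all genes, and 0.00672% passed. Pcdhb12 was at 3.42, 3.57, 3.11, 3.85 and 3.21 log2 CPM in WT_acetate and at 2.83 to 3.42 log2 CPM (median 3.05) in WT_control. Its log2 fold was 0.41 ± 0.12 (SE, adjusted p = 0.251), the groups overlapped, and the highest value came from the library labelled WT_acetate 4. Pcdha3 (-0.21 ± 0.14) and Pcdhgb2 (-0.18 ± 0.12) had the smallest p in their clusters; they were at -0.12 without the library labelled WT_acetate 5 and at -0.09 without the libraries not matching their sex label. Precision was highest here among the treatment comparisons, with 51 of 55 intervals within 1.5-fold. The medians were 0.03, -0.04 and -0.07 for alpha, beta and gamma members.

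Both treatments together in WT mice changed 108 genes of the matrix (0.726%), and no clustered protocadherin was among them. An unadjusted p under 0.05 was found in 4 of 55 members (7.27%), beside 14.4% of all genes. Pcdhga1, an alternate gamma isoform, was at 3.71, 3.36, 3.51 and 3.56 log2 CPM in WT_abx_and_acetate and at 2.48 to 3.55 log2 CPM (median 2.79) in WT_control. Its log2 fold was 0.59 ± 0.21 (SE) with an adjusted p = 0.165 by limma, the smallest adjusted p of any member in any comparison. WT_control 3, at 3.55 log2 CPM, was the control library that reached into the treated range. Pcdha12 was at 0.37 ± 0.16, Pcdha2 at -0.34 ± 0.14 and Pcdhb3 at -0.36 ± 0.17. The medians were -0.02, 0.00 and -0.05 for alpha, beta and gamma members.

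**Figure D5:**
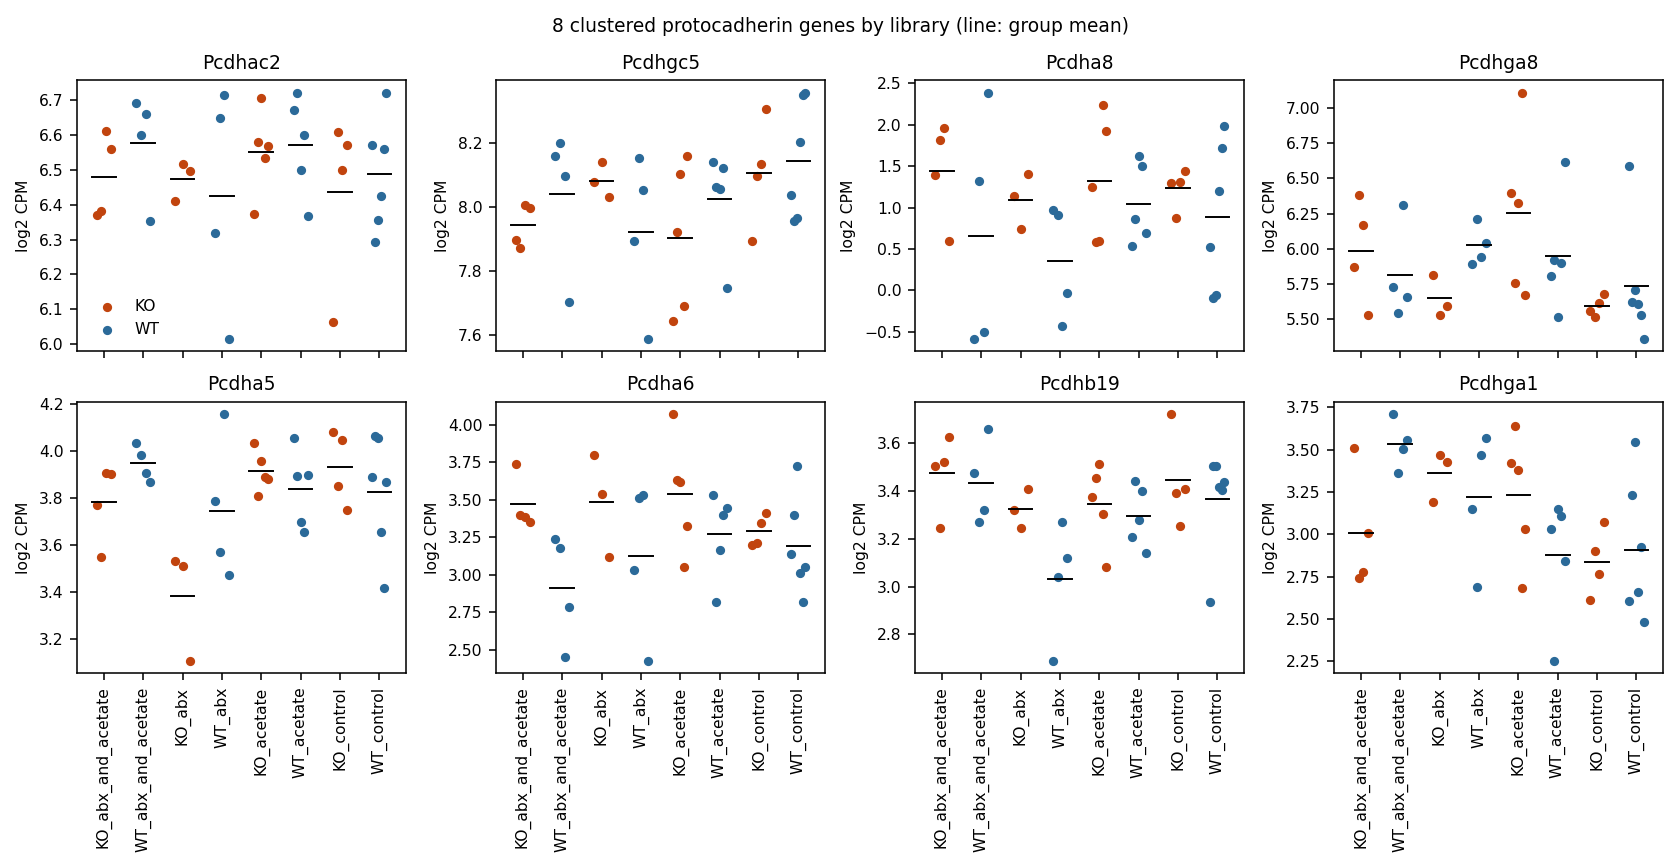
Log2 CPM (vertical axis, a separate scale in each panel) of 8 members by group; points are libraries and lines group means. Pcdhga8 reaches 7.11 in KO_acetate 4, Pcdha5 lies between 3.11 and 3.53 in KO_abx, and Pcdha8 is spread over several log2 units.

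Antibiotics with acetate were also set against antibiotics alone. In KO mice 2 of 55 members (3.64%) had an unadjusted p under 0.05, beside 2% of all genes, of which 0% passed. Pcdha5 was at 3.55 to 3.91 log2 CPM (median 3.84) in KO_abx_and_acetate, above all KO_abx libraries (3.53, 3.51 and 3.11), with a log2 fold of 0.44 ± 0.14 (SE, adjusted p = 0.9997). The KO_abx libraries are those of the comparison with control, so the 2 values for Pcdha5 are not independent. Pcdhga2 was at 0.42 ± 0.19, and at 0.20 without KO_abx 3. Pcdhb22 was at 0.21 ± 0.12. Log2 folds were positive in 12 of 13 alpha members, with a median of 0.14, and in 50.2% of all genes.

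In WT mice 5 of 55 members (9.09%) had an unadjusted p under 0.05 in that comparison, beside 6.12% of all genes, of which 0% passed. Pcdhb19 was at 3.47, 3.27, 3.32 and 3.66 log2 CPM in WT_abx_and_acetate and at 2.69, 3.04, 3.27 and 3.12 log2 CPM in WT_abx. Its log2 fold was 0.40 ± 0.13 (SE, adjusted p = 0.719), with the ranges meeting at 3.27. This comparison and that of antibiotics with control use the same WT_abx libraries, so the opposite signs of Pcdhb19 in the 2 comparisons, and those of Pcdhgb4, are not independent. Pcdha12 was at 0.46 ± 0.18, Pcdhga9 at 0.36 ± 0.16, Pcdhb14 at 0.30 ± 0.14 and Pcdhgb4 at -0.46 ± 0.19, the last at -0.23 without WT_abx_and_acetate 4, the shallowest library. The medians were 0.15, 0.09 and 0.01 for alpha, beta and gamma members.

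Whether a treatment acted differently in KO and WT was tested as an interaction. For antibiotics, 2 of 55 members (3.64%) had an unadjusted p under 0.05, beside 2.47% of all genes; for acetate 2 (3.64%), beside 3.65%; and for both treatments 1 (1.82%), beside 4.53%. No gene of the matrix (0%) passed the adjusted threshold in these 3 tests by limma. Pcdha5 (-0.49 ± 0.19) and Pcdhb11 (-0.48 ± 0.22) led for antibiotics, Pcdhga3 (-0.36 ± 0.17) and Pcdhgb1 (-0.43 ± 0.21) for acetate and Pcdha6 (0.59 ± 0.28) for both. Without the 4 libraries not matching their sex label, Pcdha5 was at -0.33 and Pcdhga3 at -0.54. The intervals were wide, with 26, 30 and 25 of 55 within 1.5-fold for antibiotics, acetate and both, so smaller interactions were not detectable with these libraries.

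The genes that act with the clustered protocadherins gave no call either. Of 19 genes for CTCF, cohesin and promoter choice, all were measured and none passed in any of the 16 comparisons by limma. At most 2 of 19 had an unadjusted p under 0.05, with antibiotics and with acetate against control in WT mice, where 9.05% and 9.41% of all genes did. The cohesin cofactor Pds5a had a log2 fold of -0.19 ± 0.05 (SE, adjusted p = 0.205) under acetate in KO mice and the cohesin loader Nipbl -0.21 ± 0.08 under acetate in WT mice. The medians of this list ran between -0.06 and 0.04. Of 17 intracellular partners, such as the WAVE complex and the kinase Ptk2, none passed. At most 3 of 17 had an unadjusted p under 0.05, with acetate in KO mice, beside 13% of all genes, and with both treatments in WT mice, beside 14.4%. Ret, a receptor kinase that binds protocadherins, came nearest: its log2 fold in WT mice was -0.56 ± 0.14 with both treatments (SE, adjusted p = 0.0577) and -0.57 ± 0.14 with antibiotics (adjusted p = 0.203), against the same control libraries. In KO mice Ret was at -0.38 ± 0.15 under acetate and -0.39 ± 0.17 under antibiotics.

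Cadherins outside the clusters were set beside the members. None of 12 non-clustered protocadherins and none of 13 classical cadherins passed in any comparison. At most 2 of 12 non-clustered protocadherins had an unadjusted p under 0.05, with both treatments in WT mice (14.4% of all genes), and at most 2 of 13 classical cadherins, with both treatments in KO mice (7.42% of all genes). Pcdh11x, an X-linked adhesion gene, had a log2 fold of 0.19 ± 0.06 (SE, adjusted p = 0.928) in KO over WT across treatments. Pcdh20 was at 0.39 ± 0.17 with both treatments against control in WT mice. Cdh9, a synaptic classical cadherin, was at 0.83 ± 0.32 with both treatments and 0.72 ± 0.30 with acetate against control in KO mice. Cdh6 had an interaction of -0.86 ± 0.30 for both treatments (adjusted p = 0.9987).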

How the data were processed

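RNA of mPFC punches was sequenced as paired ends from strand-marking libraries, per the labels' protocols. The authors deposited 1 matrix of log2 CPM values (CPM, reads scaled to library size). The submitters' processing notes name limma. The values follow the formula of its voom function, so each could be turned back into a read number. The library size in that formula was not the depth, which is the summed reads of the matrix. It was below the depth in WT_control 5 and above it in KO_control 1, so each CPM value holds a scaling factor of its library. For the aligner, the counting rule, the strand setting and the genome build, the sources used here give nothing. Every value gave a whole read number within a tolerance of 0.01 (100%), which supplied the depths and the counting error. All 35 columns were matched to samples by title, and 0 were left unused; library numbers within a group follow accession order and pair nothing.

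A linear model was fitted to the deposited log2 values of all genes (limma 3.58.1, R 4.3.3), with 8 group means and labelled sex in 1 fit over 35 libraries, a trend in the prior variance, 2-sided p-values and Benjamini-Hochberg adjustment over 14870 genes. No pseudocount or filter was added. Log2 folds are given with their SE. Precision is limited by group sizes of 3 to 6 and, for low members, by read numbers; counting error leaves out library preparation. Own-exon lengths come from the GENCODE annotation of GRCm38, matched by symbol.

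The members, gene lists and alternatives were chosen with earlier results of these data known. Named are, in each comparison and cluster, the member with the smallest p, and throughout the C-type members and the 3 highest and 3 lowest members of each cluster by mean; other members are named as counts of 5 or fewer, or were chosen after their values were seen. Of the lists (CTCF, cohesin and promoter choice; intracellular partners; non-clustered protocadherins; classical cadherins), the member with the smallest p is named. Alternatives were voom weights, no sex term, an RNA integrity term, a filter at a mean of 0 log2 CPM, quantile and median scaling, a fit on the compared groups alone, leaving out libraries that stand apart, and leaving out each library.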

Additional observations from a re-analysis of the deposited data

Results flagged for a closer look

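In groups of 4 to 6 libraries, 280 groups of values were looked at. In 9 of them a value stood apart from the rest of its group by a wide gap. Chance gives about 1 in 20 such groups, so 9 of 280 is fewer than chance alone would give, and these values are only described. The groups were those of the 3 cluster sums and of the 37 members that the naming rule gives; other members named in the text were not looked at in this way. WT_control 1 was the most frequent: Pcdhga8 was at 6.59 log2 CPM there against 5.36 to 5.71 in the other WT_control libraries, Pcdhb19 at 2.94 log2 CPM against 3.40 to 3.50, and the beta sum at 124.9 CPM against 144 to 154 CPM. In WT_abx_and_acetate 4, the shallowest library, Pcdhgb4 was at 2.34 log2 CPM against 3.11 to 3.22 in its group, and Pcdhgb6 at 5.001 log2 CPM against 4.49 to 4.55. Pcdha6 was at 3.74 log2 CPM in KO_abx_and_acetate 1 against 3.35 to 3.40. Pcdhb17 was at 4.30 log2 CPM in WT_acetate 1 against 3.96 to 4.05. Pcdhgc5 was at 7.75 log2 CPM in the library labelled WT_acetate 5, which has intermediate Shank3, against 8.06 to 8.14. The alpha sum was 223 CPM in KO_acetate 1, the library with striatal and oligodendrocyte markers, against 249 to 256 CPM in the other KO_acetate libraries.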

How the results depend on the processing

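The count of members past the adjusted threshold was 0 in each of the 16 comparisons in the fit as reported. It was also 0 in all 195 values from fits that left out 1 library of the compared groups. The same held for all 176 values under the other alternatives, where 1 fit gives values for several comparisons. Among these alternatives, counting repeated rows is the reported fit itself. The log2 folds of the members with the smallest p kept their direction in 585 values without 1 library and in 480 values under the other alternatives. Several of these log2 folds shrank, as given beside them. These members were picked for their small p in the same libraries. A kept direction was thus likely beforehand and does not show that a difference is real. Medians of a cluster's log2 folds were compared with the spread between replicates (0.10 for alpha, 0.11 for beta and 0.08 for gamma). They moved by more than this in 10 values without 1 library, while 575 did not. Under the other alternatives 5 values moved and 475 did not, and the cause was not tested. Between KO and WT, the gamma median in control was -0.05 without KO_control 3, the beta median under antibiotics -0.01 without KO_abx 3, and under acetate the alpha median -0.06 without the library labelled WT_acetate 5 and the gamma median -0.01 without the 4 libraries not matching their sex label. In WT mice, the alpha median with both treatments was 0.10 without WT_control 1, and the gamma median with acetate 0.03 without the 4 libraries. In KO mice, the beta median of both treatments against antibiotics was 0.14 without the sex term. Of single members, Pcdha4 with acetate in KO mice was at 0.06 without KO_control 2 and 0.34 without KO_control 4, Pcdhga11 with both treatments in KO mice at -0.12 without KO_abx_and_acetate 4, and Pcdhb22 between KO and WT with both treatments at 0.14 without WT_abx_and_acetate 4. No paired analysis was possible because the labels give no replicate numbers that groups share. Counting rows that repeat another row separately changed nothing, since 0 members do. Members with few reads, such as Pcdha8 with 12 in its lowest library, have wide intervals.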

Other observations

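Pcdhga8, the alternate member with the largest spread over its counting error, was set against the 19 genes for CTCF, cohesin and promoter choice over 35 libraries, after its values were seen and with group and sex means removed. Of the 19 relations, 17 were negative, and 3 had an adjusted p under 0.05 in a 2-sided permutation test of Pearson's r with 100000 resamples. The deviations were permuted freely over 35 libraries, although 8 group means and sex had been fitted. They are not fully exchangeable, so the permutation p-values given here may be too small. Of the 14869 other genes of the matrix, 50.7% had a negative r with Pcdhga8, and 8 (0.0538%) had an r at or under that of Smc1a, these 3 list genes included. Without the 2 libraries farthest from the median of Pcdhga8, WT_control 1 and KO_acetate 4, 14 of the 19 were negative and 5 positive, beside 50.04% negative among the other genes. For the cohesin subunit Smc3, r was -0.72 (permutation p = 1e-05, the smallest the resamples can give; adjusted p = 9.5e-05) and Spearman's rho -0.61 (permutation p = 0.00014, adjusted p = 0.002375). For the DNA methyltransferase Dnmt1, r was -0.70 (permutation p = 1e-05, adjusted p = 9.5e-05) and rho -0.59 (permutation p = 0.00025, adjusted p = 0.002375). For the cohesin subunit Smc1a, r was -0.66 (permutation p = 4e-05, adjusted p = 0.000253) and rho -0.53 (permutation p = 0.00116, adjusted p = 0.00735). Without the same 2 libraries, r was -0.65, -0.59 and -0.48 for Smc3, Dnmt1 and Smc1a. For Ctcf itself r was -0.34 (permutation p = 0.0464, adjusted p = 0.147). The difference between long and short transcripts, taken over all genes with a length, also moved with Pcdhga8 (r -0.59, permutation p = 0.00021; -0.48 without the same 2 libraries) and with Smc3 (r 0.54) and Dnmt1 (r 0.67), and its part in these relations was not tested.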
